A study of Mus musculus with 15 samples.

Results

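Enterocytes are born in the crypts of the small intestine and move up the villus until they are shed at its tip, and their gene expression changes along the way. Here 7 genes known to be highest in enterocytes of the upper villus were followed in whole ileum: Ada, Nt5e, Slc28a2, Enpp3, Klf4, Egfr and Pkib. They were chosen by name, and each matched 1 of the 37620 gene identifiers of the count tables. Of the 7, 4 handle purine nucleotides and nucleosides. Enpp3 and Nt5e are ectoenzymes, which split ATP to AMP and AMP to adenosine, Slc28a2 is a sodium-coupled carrier of purine nucleosides, and Ada (adenosine deaminase) turns adenosine into inosine. Klf4 is a zinc-finger transcription factor of differentiated epithelium, Egfr the receptor of epidermal growth factor, and Pkib an inhibitor of protein kinase A.

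The study compared adult mice with and without deletion of Rfx6, a transcription factor of hormone-producing cells, in RNA from whole ileum, the stretch of small bowel before the colon. The libraries labelled mutant came from Rfx6f/f; Vilin-CreERT2 animals, in which both Rfx6 alleles are flanked by loxP sites and a tamoxifen-inducible Cre is driven by the Villin promoter, which is active throughout the intestinal epithelium. All 3 controls of 8 days and 2 of the 4 controls of 3 months were Rfx6f/f, and the other 2 controls of 3 months were Rfx6f/+, all without Cre. Per the labels' protocols, tamoxifen (10 mg) was given by repeated gavage to the adult mice of all groups and the tissue was taken 8 days or 3 months later, which gave 3 control and 4 mutant libraries at 8 days and 4 of each at 3 months. Every mutant carried the Cre and no control did, so an effect of the Cre and one of the deletion cannot be told apart. The labels give no litter, sex or preparation day, and the p-values measure the spread between these libraries.

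In units of 1000000 counts, depth was 30.5 to 54.5 at 8 days and 26.1 to 36.3 at 3 months. The lowest count of any of the 7 genes in any library was 208. Counts per 1000000 (CPM) below use the library size scaled by the trimmed mean of M values (TMM) over all 15 libraries. Rfx6 itself showed no fall with the mutant label: its level lay at 1.37 to 1.65 CPM in controls and 1.47 to 2.1 CPM in mutants at 8 days, and at 1.46 to 1.74 and 2.26 to 3.34 CPM at 3 months, where it was higher (log2 fold change 0.72 ± 0.168 SE, adjusted p = 0.0347, edgeR quasi-likelihood test). The counts cover the whole gene, and reads from the exons left after deletion are not separated from it. Gcg, a hormone gene of enteroendocrine cells, lay at 37.2 to 44.5 CPM in controls against 1.25 to 3.58 CPM in mutants at 8 days, and at 38.6 to 69.1 against 0.0 to 0.174 CPM at 3 months. Both markers of the ileum, Fabp6 and Slc10a2, were present in every library, though Fabp6 was lower in the mutants of 3 months. Slc10a2 was lowest in mutant replicate 4 of 3 months, at 195 CPM against 282 to 596 CPM in the other libraries. Gata4, a transcription factor of the proximal intestine, set 2 libraries of 8 days apart from the other 5 of that time. It stood at 0.639 CPM in mutant replicate 2 of 8 days and at 1.3 CPM in replicate 4, against 12.4 to 24.8 CPM in the other 5. The 4 controls of 3 months, at 1.61 to 3.63 CPM, lay nearer to these 2 libraries. Among the libraries of 3 months Gata4 was highest in mutant replicate 4, at 12.7 CPM.

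The promoters of the purine-handling genes are shown because those genes hold the called difference and the pairs that varied together. Each line is the 250 bases before the gene's start, 5′ to 3′ on the gene's own strand, from RefSeq on build GRCm38.p6. The capitals mark matches, on either strand, to 7 short motifs, given below with their letters. The motifs do not contain one another.
Nt5e, chr9:88327359-88327608, plus strand: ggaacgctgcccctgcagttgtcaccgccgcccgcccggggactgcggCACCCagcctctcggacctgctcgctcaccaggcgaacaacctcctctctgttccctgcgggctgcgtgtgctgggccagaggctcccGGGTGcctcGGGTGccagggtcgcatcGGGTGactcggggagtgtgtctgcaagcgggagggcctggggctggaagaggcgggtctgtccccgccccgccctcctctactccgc
Ada, chr2:163750240-163750489, minus strand: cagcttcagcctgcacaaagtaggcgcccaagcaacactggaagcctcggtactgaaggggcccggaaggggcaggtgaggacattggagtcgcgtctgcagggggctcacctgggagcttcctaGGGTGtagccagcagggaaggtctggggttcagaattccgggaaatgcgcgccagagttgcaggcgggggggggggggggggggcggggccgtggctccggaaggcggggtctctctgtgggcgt
Slc28a2, chr2:122426185-122426434, plus strand: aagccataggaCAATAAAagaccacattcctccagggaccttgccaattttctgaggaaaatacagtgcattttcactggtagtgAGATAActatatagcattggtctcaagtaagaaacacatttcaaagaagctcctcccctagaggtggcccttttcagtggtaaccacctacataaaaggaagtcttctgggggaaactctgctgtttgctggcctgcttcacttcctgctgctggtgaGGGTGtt
Enpp3, chr10:24836196-24836445, minus strand: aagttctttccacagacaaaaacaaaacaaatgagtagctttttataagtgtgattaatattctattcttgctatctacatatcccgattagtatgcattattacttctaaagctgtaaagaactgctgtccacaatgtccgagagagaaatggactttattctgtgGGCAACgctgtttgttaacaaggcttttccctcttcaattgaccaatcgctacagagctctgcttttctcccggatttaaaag
The KLF motif CACCC occurred 4 times in the promoter of Nt5e and was also found in those of Ada, Slc28a2 and Egfr. With 4 of the 7 genes holding it, it was also present in 57.5% of all 32851 RefSeq promoters, counted over windows of 300 bases. The GATA motif AGATAA was found in the promoters of Slc28a2 and Pkib, and in 11.2% of all. For CDX factors the letters searched were TTTATNG, found in the promoter of Slc28a2 and in 10.9% of all. The RFX motif, GTTGCC, lay in the promoters of Enpp3, Klf4 and 1 of 2 starts of Pkib, and in 12.5% of all. No window of the 7 genes held the AP-1 motif TGANTCA, which was in 7.81% of all promoters. The CREB motif TGACGTCA (1.79% of all) was not found either. The same held for the HNF4 motif CAAAGTCCA (0.475% of all). A match is a match of letters and not a bound site.

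Per length of exon, Ada had the highest mean of the 7 and Pkib the lowest in every group, Klf4 and Slc28a2 came next after Ada, and the order of Enpp3, Nt5e and Egfr changed between groups. In the 8-day controls the mean level was 186 ± 71.5 CPM per kilobase for Ada (SD, n = 3), 85.0 ± 10.2 for Klf4, 23.4 ± 6.68 for Slc28a2, 11.3 ± 5.41 for Enpp3, 8.09 ± 2.47 for Nt5e, 6.2 ± 0.158 for Egfr and 0.67 ± 0.16 for Pkib. The libraries of Slc28a2 and Enpp3 overlapped on that scale, as did those of Enpp3 and Nt5e and those of Nt5e and Egfr. Within libraries, Slc28a2 lay above Enpp3 in all 3 of these controls, while the order of Enpp3 and Nt5e and that of Nt5e and Egfr changed from library to library. In the 8-day mutants the means were 101 ± 36.4 CPM per kilobase for Ada (SD, n = 4), 85.4 ± 12.9 for Klf4, 13.9 ± 3.93 for Slc28a2, 6.96 ± 2.27 for Nt5e, 5.84 ± 5.12 for Enpp3, 5.49 ± 0.394 for Egfr and 0.755 ± 0.0965 for Pkib. Klf4 lay above Ada in replicate 1 of these mutants and below it in the other 3 libraries. In the 3-month controls Ada, at 105 ± 28.2 CPM per kilobase (SD, n = 4), overlapped Klf4 at 80.1 ± 8.94 but lay above it within each of the 4 libraries. Slc28a2 followed at 14.9 ± 0.998, Egfr at 5.01 ± 0.145 and Nt5e at 4.51 ± 0.844 overlapped each other, and Enpp3 at 1.91 ± 0.131 lay above Pkib at 1.06 ± 0.0921. In the 3-month mutants Nt5e moved up to 19.3 ± 7.54 CPM per kilobase, where it overlapped Slc28a2 at 24.2 ± 14.5. The exon length of Pkib sums many alternative transcripts, which lowers its value on this scale.

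The main comparison asked whether these genes differ between mutant and control ileum at each time. At 8 days 0 of the 7 were called by the edgeR quasi-likelihood test at an adjusted p under 0.05, where 0.0915% of all 17493 genes tested were called. Their unadjusted p was under 0.05 for 3 of them, Ada, Slc28a2 and Egfr, as held for 8.8% of all genes, and DESeq2 called 0 as well. Their median log2 fold change was -0.22, with 2 of 7 above 0, beside a median of -0.0020 over all genes. At 3 months 1 of the 7, Nt5e, was called by edgeR and 1 by DESeq2, where edgeR called 9.28% of 17085 genes, and 2 of the 7 had an unadjusted p under 0.05, beside 29.4% of all genes. The median of the 7 was 0.18, with 6 of 7 above 0, beside 0.0077 over all genes. In bulk tissue, fewer cells of a type and less RNA per cell cannot be told apart.

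**Figure D1:**
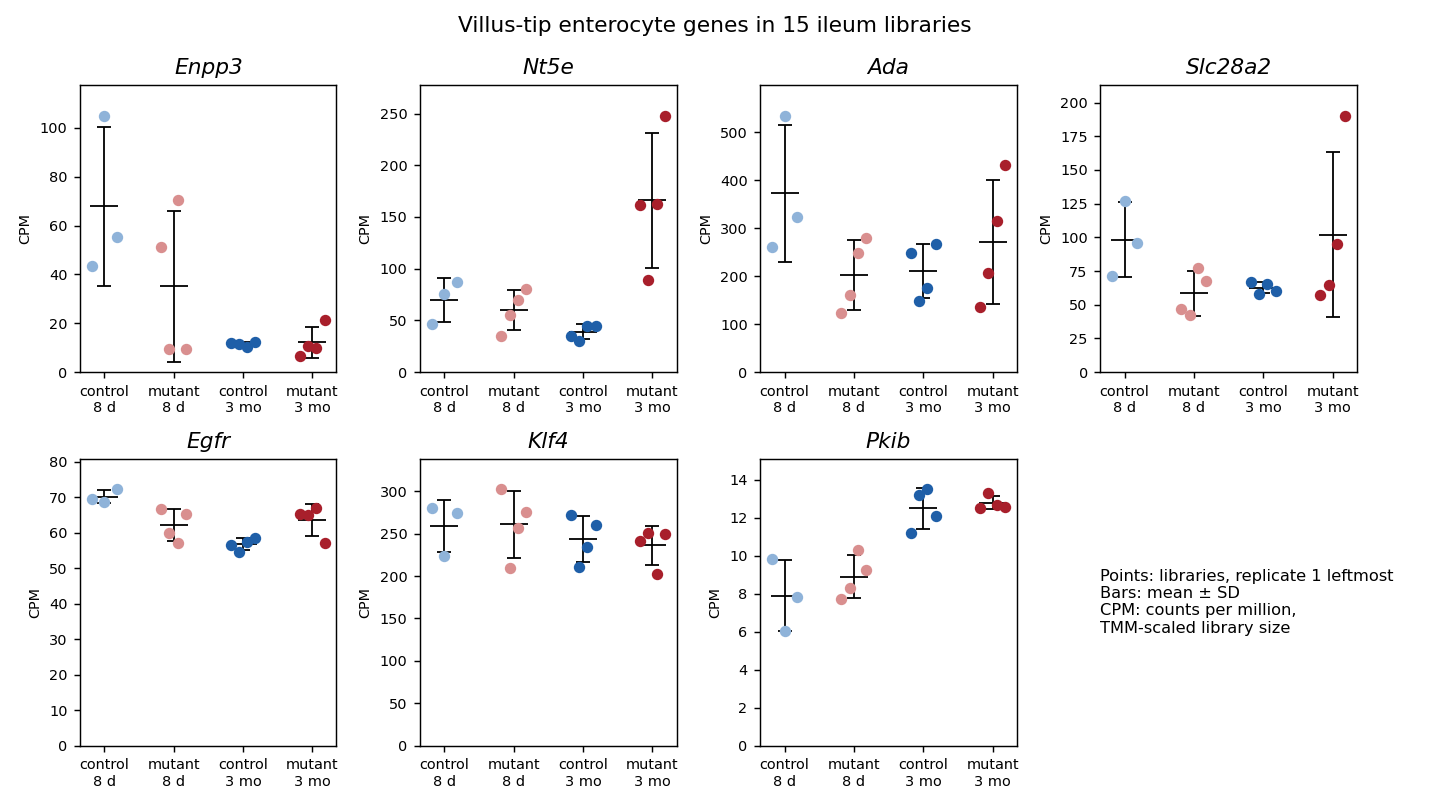
Level of each villus-tip gene (CPM, linear axis from 0) in the 15 libraries, by group; points are libraries and bars the mean ± SD. The 4 mutants of 3 months stand at 89.5 to 248 CPM of Nt5e, above all 11 other libraries, and mutant replicates 2 and 4 of 8 days are low in Enpp3.

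**Figure D2:**
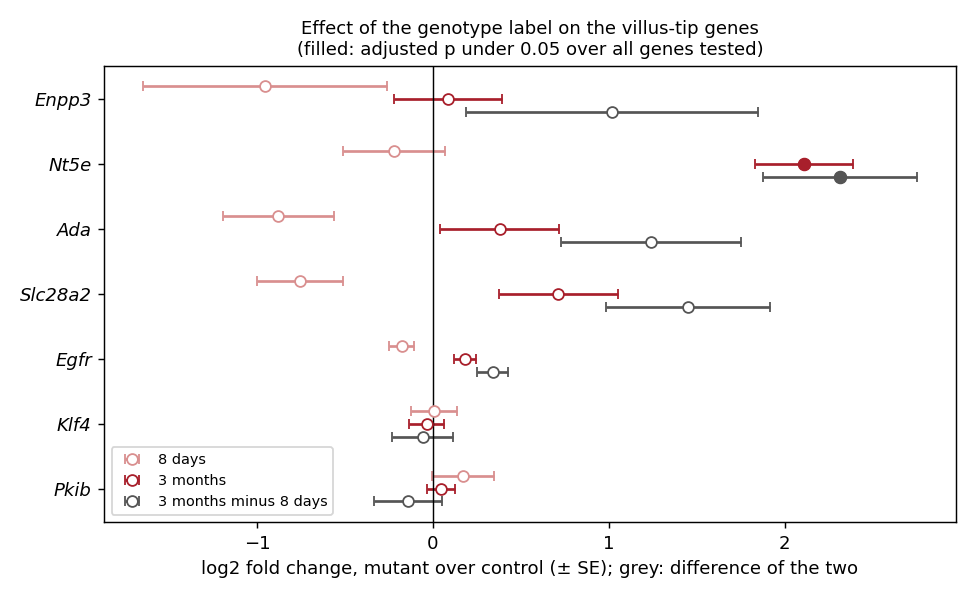
Log2 fold change, mutant over control (± SE), of the 7 genes at 8 days and 3 months, and the difference of both effects; filled points have an adjusted p under 0.05. Nt5e at 3 months (2.11) and its difference between times (2.32) are the filled points.

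Nt5e (ENSMUSG00000032420, chromosome 9), the enzyme that makes adenosine from AMP at the cell surface, rose in the mutants of 3 months. The 4 controls had 35.3, 30.2, 44.8 and 44.8 CPM and the 4 mutants 162, 89.5, 163 and 248 CPM. Every mutant lay above every control, and the groups did not overlap, as held for 19.4% of all genes tested at that time. The log2 fold change was 2.11 ± 0.279 (SE), a 4.32-fold rise, with an adjusted p of 0.00697 by the edgeR quasi-likelihood test. It was called in each of the 8 fits that left out 1 library, with log2 values of 1.85 to 2.31 and adjusted p of 0.00095 to 0.0301. With only the 2 Rfx6f/f controls it was 2.05 and no longer called, at an adjusted p of 0.119 (edgeR), in a fit that called 36 genes in all. At 8 days the 3 controls had 46.0, 75.3 and 87.4 CPM and the 4 mutants 34.7, 55.6, 69.4 and 79.9 CPM, which overlapped. Its log2 fold change then was -0.22 ± 0.289 (adjusted p = 0.925, edgeR).

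Markers of other cells differed between the same groups at 3 months, and Nt5e is also known from endothelium, fibroblasts and lymphocytes. The summed level of 6 T-cell markers was 63.3 to 78.7 CPM in controls and 14.9 to 46.0 CPM in mutants, and 4 of the 6 fell, where edgeR called 9.28% of all genes in either direction. The 6 B-cell and plasma-cell markers summed to 2108 to 2978 CPM and 1119.8 to 1621 CPM, and 2 of 6 fell. The 4 endothelial markers summed to 83.1 to 88.0 CPM and 91.7 to 128 CPM, and 2 rose, Cdh5 by a log2 value of 0.49 and Kdr by 0.58. The 5 fibroblast markers summed to 1015 to 1142 CPM and 1104 to 1801 CPM, and 1 rose, Pdgfra, by 0.64. Of 5 myeloid markers 1 rose (Csf1r, 0.60), in sums of 303 to 367 and 286 to 384 CPM. Of 5 smooth-muscle markers 0 were called by edgeR or DESeq2, in sums of 1394 to 1680.3 and 1490.2 to 2657 CPM. An unadjusted p under 0.05 was found for 1 of these 5, beside 29.4% of all genes. No marker of these lists was at 0 in all libraries of a group. Of the genes that mark the place along the gut, Fabp6 had 557 to 1151 CPM in the mutants against 1969 to 2691 CPM in controls and fell by 1.44 on the log2 scale (adjusted p = 0.00873, edgeR). Slc10a2 had a log2 fold change of -0.55 and Gata4 one of 1.37, neither called (adjusted p = 0.188 and 0.0883, edgeR). The part of these markers in the level of Nt5e was not tested. The calls of these T-cell, B-cell, endothelial, fibroblast, myeloid and ileum markers were lost, like that of Nt5e, with the Rfx6f/f controls alone. With 1 library left out in turn, 1 of 8 fits kept the calls of Kdr and of the T-cell genes Cd3g and Cd8a. The calls of Cd5 were kept in 3, of Cd3d and Cdh5 in 4, and of Csf1r and Pdgfra in 5. Those of Fabp6 and of the plasma-cell genes Mzb1 and Jchain were kept in 8.

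Ada (ENSMUSG00000017697, chromosome 2) was the most abundant of the 4 purine-handling members in every group, by mean CPM per kb of exon. At 8 days the controls had 261, 534 and 322 CPM and the mutants 124, 161, 248 and 279.7 CPM. Only the highest mutant lay above the lowest control. This gave a log2 fold change of -0.88 ± 0.316, with an adjusted p of 0.473 (edgeR quasi-likelihood), and it was -0.52 without control replicate 2, the highest library. At 3 months the controls had 248, 149, 176 and 267 CPM and the mutants 135, 206, 314 and 431 CPM. The mutants spread 3.2-fold and took in the whole range of the controls. This gave a log2 fold change of 0.38 ± 0.338 (adjusted p = 0.482, edgeR), and it was 0.075 without mutant replicate 4 and 0.081 with the Rfx6f/f controls alone.

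Slc28a2 (ENSMUSG00000027219, chromosome 2), the nucleoside carrier, had 71.3, 127 and 96.1 CPM in the 8-day controls and 47.1, 42.1, 77.1 and 67.4 CPM in the mutants. As for Ada, 1 mutant lay above the lowest control. Its log2 fold change was -0.76 ± 0.245 (adjusted p = 0.46, edgeR). At 3 months the controls had 67.0, 58.3, 65.5 and 60.1 CPM and the mutants 57.1, 64.9, 95.1 and 190.3 CPM. In all, 2 mutants lay within or below the controls' range and 2 above it, and replicate 4 carried most of the difference. The log2 fold change of 0.71 ± 0.337 (adjusted p = 0.193, edgeR) became 0.23 without that replicate. Slc28a2 has a near copy, Slc28a2b, whose transcript matches it at 95.9% over 3748 aligned bases. Reads that fit both may have been left out or assigned to either, so the sum of both may fall short of their total. The copy held 2.49 to 5.3% of their summed level at 8 days and 3.83 to 22.9% at 3 months, and the sums, of 72.8 to 82.0 CPM in controls and 71.5 to 240.4 CPM in mutants at 3 months, overlapped too.

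Ada and Slc28a2 varied together within the groups. Over the 15 libraries, after the mean of each group was subtracted from log2 CPM, Pearson's r was 0.851 (exact permutation within groups, p = 0.00275, adjusted over 21 pairs 0.0577) and Spearman's rho 0.857 (exact permutation p = 0.00206, adjusted 0.0433). Leaving out the 2 libraries farthest from the median of Ada gave an r of 0.78. Within the cohorts r was 0.898 at 8 days and 0.831 at 3 months. The adjusted p of r fell below the threshold in 4 of 15 fits that each left out 1 library and ranged from 0.0263 to 0.172. Nt5e had an r of 0.657 with Ada and 0.693 with Slc28a2, each with an adjusted permutation p of 0.259, and its rho was 0.739 and 0.711 (adjusted permutation p = 0.118 and 0.143). Of the 21 pairs of the 7 genes, 0 passed on r and 1 on rho. Slc10a2, the bile-acid carrier of the distal ileum, ran opposite to Ada, with an r of -0.812 (exact permutation p = 0.00482, adjusted 0.0506) and a rho of -0.729 (adjusted permutation p = 0.184). It also ran opposite to Slc28a2, with an r of -0.841 (exact permutation p = 0.0109, adjusted 0.0765) and a rho of -0.743 (adjusted permutation p = 0.214). None of these 4 adjusted values passed, and without the 2 libraries farthest from the median of Slc10a2 r was -0.675 and -0.605.

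**Figure D3:**
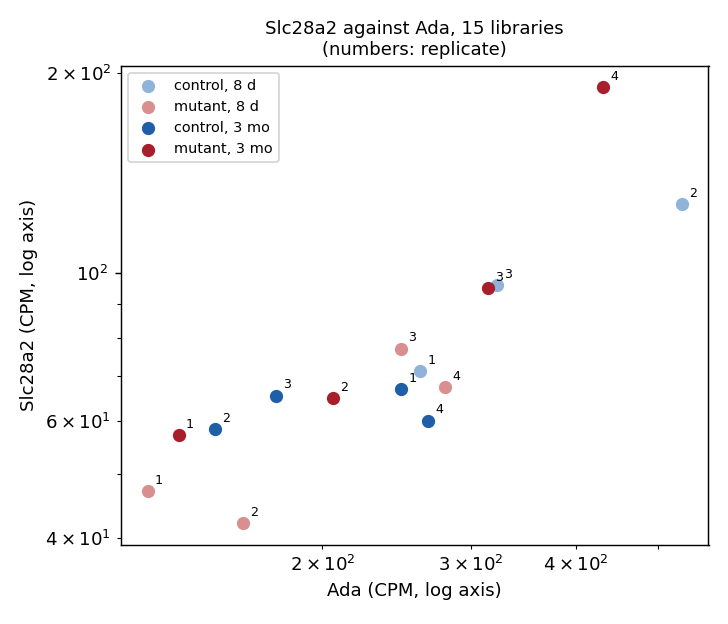
Slc28a2 against Ada (CPM, both axes logarithmic) in the 15 libraries, coloured by group and numbered by replicate. Libraries with more Ada tended to have more Slc28a2, with exceptions in both cohorts; at 8 days mutant replicate 1 had 124 and 47.1 CPM, mutant replicate 2 had 161 and 42.1 CPM, and control replicate 2 had 534 and 127 CPM.

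Of 24 other genes listed for nucleotide breakdown, adenosine signalling and purine salvage, 23 had an identifier and were tested. At 3 months edgeR called 1 of them, which fell, DESeq2 called 4, and 5 had an unadjusted p under 0.05, beside 9.28% of all genes called by edgeR and 29.4% at an unadjusted p under 0.05. The gene called by edgeR was Slc28a3, another nucleoside carrier, with 45.5, 38.1, 38.7 and 25.8 CPM in controls and 16.8 to 27.0 CPM in the 4 mutants. Its log2 fold change was -0.88 ± 0.199 (adjusted p = 0.0314, edgeR), and its call was kept in 2 of 8 fits without 1 library and lost with the Rfx6f/f controls alone (adjusted p = 0.215, edgeR). The pyrimidine carrier Slc28a1 had 1.3, 2.32, 0.92 and 2.0 CPM in controls and 1.2, 5.79, 3.92 and 32.7 CPM in mutants, with the highest value in replicate 4, where Slc28a2 was also highest. The change of 2.74 ± 0.906 was not called (adjusted p = 0.086, edgeR). Among genes next to Nt5e in the pathway, Entpd1, which splits ATP and ADP, had a log2 fold change of 0.13 at 3 months, Adk, the adenosine kinase, -0.16, and Dpp4, the surface peptidase that binds adenosine deaminase in humans, -0.25, with adjusted p of 0.475, 0.446 and 0.314 (edgeR). The other 3 genes with an unadjusted p under 0.05 were not called: Alpi, the intestinal alkaline phosphatase, which also acts on AMP, at 0.66, Xdh, the xanthine dehydrogenase, at -0.66, and the adenosine receptor gene Adora3 at 0.57, with adjusted p of 0.131, 0.101 and 0.138 (edgeR). The median over the 23 genes was 0.062 at 3 months, with 12 of 23 above 0. At 8 days edgeR and DESeq2 called 0 of 23 and 6 had an unadjusted p under 0.05, beside 8.8% of all genes. The median then was -0.19, with 6 of 23 above 0, beside -0.0020 over all genes.

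Enpp3 (ENSMUSG00000019989, chromosome 10), the ectoenzyme at the start of that chain, had its widest spread inside 1 group. At 8 days the controls had 43.3, 105 and 55.5 CPM and the mutants 51.3, 9.35, 70.6 and 9.29 CPM. Mutant replicates 1 and 3 lay among the controls and replicates 2 and 4 far below, a 7.6-fold spread. The log2 fold change of -0.96 ± 0.694 (adjusted p = 0.798, edgeR) became -0.16 when replicates 2 and 4, which also stood apart in Gata4, were left out together. At 3 months the controls had 11.8, 11.6, 10.4 and 12.2 CPM and the mutants 6.55, 10.6, 9.75 and 21.4 CPM. The mutants lay on both sides of the controls, with a log2 fold change of 0.085 ± 0.308 (adjusted p = 0.879, edgeR), and -0.34 without mutant replicate 4.

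Enpp3 followed Gata4, a transcription factor known from the proximal small intestine. Gata4 had 12.4, 24.8 and 21.2 CPM in the 8-day controls and 18.3, 0.639, 24.7 and 1.3 CPM in the mutants, so the same 2 libraries were low in both genes. At 3 months Gata4 had 3.24, 3.63, 1.61 and 1.83 CPM in controls and 3.08, 6.88, 3.99 and 12.7 CPM in mutants, and mutant replicate 4 was highest in both. Since the 2 low libraries form a cluster of their own, the relation was first taken without them, on log2 CPM with the mean of each group subtracted: r was 0.812, with an exact permutation p, adjusted over 21 pairs of the 7 genes with Gata4, Fabp6 and Slc10a2, of 0.0516. With them r was 0.945 (exact permutation p = 0.00105, adjusted 0.022) and rho 0.918 (exact permutation p = 0.00104, adjusted 0.0218), the 1 pair of that family that passed. The r was 0.966 within 8 days, 0.831 within 3 months and 0.913 without the 2 libraries farthest from the median of Gata4. With 1 library of all 15 left out in turn, r lay at 0.918 to 0.962, while its adjusted permutation p passed 0.05 without control replicate 3 (0.0527) or mutant replicates 1 (0.133), 3 (0.105) or 4 (0.197) of 3 months. Gata4 was not tied in this way to Ada (r = 0.12, adjusted permutation p = 0.932), Nt5e (r = -0.129, 0.932) or Slc28a2 (r = 0.406, 0.539). A difference in the place along the gut where the ileum was cut was not tested, as the labels give no position.

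**Figure D4:**
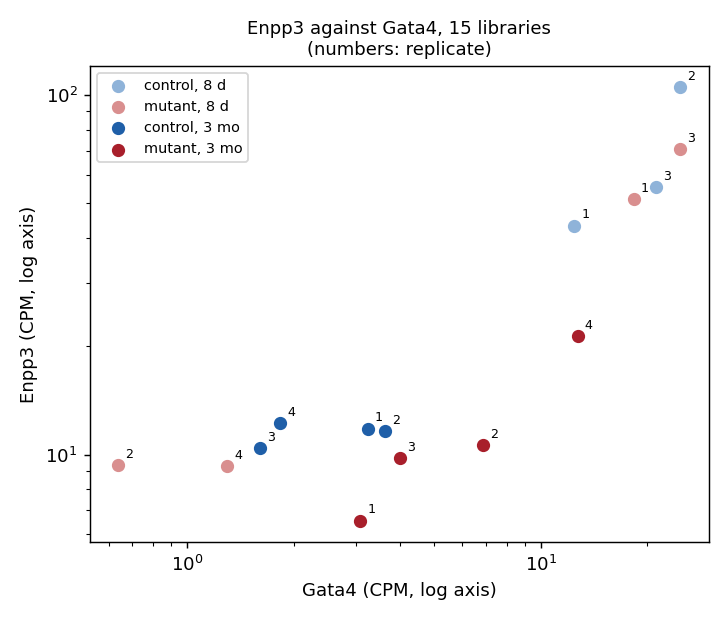
Enpp3 against Gata4 (CPM, both axes logarithmic) in the 15 libraries, coloured by group and numbered by replicate. Mutant replicates 2 and 4 of 8 days stand apart from the 5 other 8-day libraries, which lie at 43.3 to 105 CPM of Enpp3. The 2 had 9.35 and 9.29 CPM of Enpp3, within the 6.55 to 21.4 CPM of the 3-month libraries. At 0.639 and 1.3 CPM they were lower in Gata4 than the other 13 libraries.

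Of the other 6 members listed for the Enpp family, 1 rose at 3 months by edgeR, beside 9.28% of all genes called, while DESeq2 called 1. An unadjusted p under 0.05 was found for 2 of the 6, beside 29.4% of all genes. Enpp7, the alkaline sphingomyelinase of the intestine, had 24.2, 22.8, 13.7 and 16.0 CPM in controls and 59.6, 235, 43.2 and 206 CPM in mutants. All mutants lay above all controls, and the log2 fold change was 2.84 ± 0.55 (adjusted p = 0.021, edgeR). It was called in 5 of 8 fits without 1 library and not with the Rfx6f/f controls alone (adjusted p = 0.189). At 8 days the 3 controls of Enpp7 spread from 17.6 to 116 CPM.

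Egfr (ENSMUSG00000020122, chromosome 11) had the smallest spread of the 7 relative to its mean in 3 of the 4 groups. At 8 days the controls had 69.6, 68.8 and 72.2 CPM and the mutants 66.6, 59.8, 57.1 and 65.2 CPM. It was the 1 gene of the 7 whose groups did not overlap at that time, as held for 7.68% of all genes tested. The difference was small, with a log2 fold change of -0.18 ± 0.0716, and was not called (adjusted p = 0.508, edgeR). At 3 months the controls had 56.5, 54.6, 57.4 and 58.5 CPM and the mutants 65.4, 65.0, 67.0 and 57.2 CPM. Replicates 1 to 3 of the mutants lay above the controls and replicate 4 among them. The log2 fold change of 0.18 ± 0.0623 was not called (adjusted p = 0.0964, edgeR), but was 0.23 and called without mutant replicate 4 (adjusted p = 0.0414). Of 13 genes listed for ligands, other receptors and inhibitors of this family 11 were tested. Of these, edgeR called 0 at either time, beside 0.0915% of all genes at 8 days and 9.28% at 3 months. An unadjusted p under 0.05 was found for 4 at 8 days and 3 at 3 months, beside 8.8% and 29.4% of all genes. DESeq2 called 0 and 2. The nearest at 3 months were the ligand gene Ereg at 0.42 (adjusted p = 0.0556, edgeR) and the feedback inhibitor Errfi1 at 0.76 (adjusted p = 0.0629, edgeR).

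Klf4 (ENSMUSG00000003032, chromosome 4) was near even in all groups. It had 280.3, 223 and 274 CPM in the 8-day controls and 302, 209, 256 and 276 CPM in the mutants, and 272, 211, 234 and 260.0 CPM and 241, 251, 202 and 249 CPM at 3 months. The groups overlapped at both times, with log2 fold changes of 0.0049 ± 0.13 and -0.037 ± 0.102 (adjusted p = 0.998 and 0.839, edgeR). Of 11 other genes of the Krüppel-like family 2 rose at 3 months by edgeR, beside 9.28% of all genes called, while DESeq2 called 4. An unadjusted p under 0.05 was found for 5 at that time, beside 29.4% of all genes. At 8 days edgeR and DESeq2 called 0 of the 11, where edgeR called 0.0915% of all genes. An unadjusted p under 0.05 was then found for 3, beside 8.8% of all genes. Klf10, known as an early target of TGF-beta, had 34.8 to 43.1 CPM in controls and 55.2 to 70.1 CPM in mutants, a log2 change of 0.66 ± 0.0972 (adjusted p = 0.00915, edgeR). Klf11, a close relative of Klf10, had 6.86 to 10.8 CPM and 13.8 to 18.1 CPM, a change of 0.83 ± 0.158 (adjusted p = 0.0193, edgeR). Both calls held in 8 of 8 fits without 1 library and were lost with the Rfx6f/f controls alone, at adjusted p of 0.115 and 0.0682 (edgeR).

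Pkib (ENSMUSG00000019876, chromosome 10) had the lowest mean level of the 7 per length of exon in every group, on the scale that its many transcripts lower, while in CPM the means of Enpp3 at 3 months were lower still. It had 9.84, 6.07 and 7.81 CPM in the 8-day controls and 7.71, 8.33, 10.3 and 9.26 CPM in the mutants, and 11.2, 13.2, 13.5 and 12.1 CPM and 12.5, 13.3, 12.7 and 12.6 CPM at 3 months. The 3-month libraries lay above all 8-day libraries, and the genotypes overlapped within each time. The log2 fold changes were 0.17 ± 0.177 and 0.046 ± 0.0815 (adjusted p = 0.886 and 0.738, edgeR). Of the 8 listed subunits and other inhibitors of protein kinase A, edgeR and DESeq2 called 0 at either time. Of all genes, edgeR called 0.0915% at 8 days and 9.28% at 3 months. At each time 1 of the 8 had an unadjusted p under 0.05, beside 8.8% of all genes at 8 days and 29.4% at 3 months. The log2 fold changes of the 8 lay between -0.20 and 0.18 at 3 months.

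Signals of the bone morphogenetic protein family are known to rise toward the villus tip and to act on enterocytes there. Of 14 listed ligands, receptors, targets and antagonists 4 were called at 3 months by edgeR and 5 by DESeq2, and 8 had an unadjusted p under 0.05, beside 9.28% of all genes called by edgeR and 29.4% at an unadjusted p under 0.05. At 8 days edgeR and DESeq2 called 0, where edgeR called 0.0915% of all genes, and 3 had an unadjusted p under 0.05, beside 8.8% of all genes. The target genes Id1 (-0.51 ± 0.115, adjusted p = 0.031) and Id3 (-0.41 ± 0.0625, adjusted p = 0.00997) fell, while the receptor gene Bmpr2 (0.39 ± 0.0925, adjusted p = 0.0353) and the ligand gene Bmp7 (0.46 ± 0.115, adjusted p = 0.0401) rose, all by edgeR. Leaving out 1 library kept the call of Id3 in 8 of 8 fits, of Id1 in 3, of Bmpr2 in 2 and of Bmp7 in 1. With the Rfx6f/f controls alone all 4 calls were lost, at adjusted p of 0.0898 for Id3, 0.152 for Id1, 0.257 for Bmpr2 and 0.243 for Bmp7 (edgeR).

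Whether the effect differed between the times was tested as the difference of both log2 fold changes in 1 fit of all libraries. Nt5e passed, the 1 of the 7 that did, where 0.785% of 17959 genes tested passed. In all, 4 of the 7 had an unadjusted p under 0.05 for the difference, beside 16.6% of all genes. The difference was 2.32 ± 0.436 (adjusted p = 0.041, edgeR). The call did not hold without control replicates 1, 2 or 3 of 3 months (adjusted p = 0.0707, 0.0758 and 0.0687), mutant replicates 1 or 3 of 3 months (0.0568 and 0.0595), control replicates 2 or 3 of 8 days (0.078 and 0.126) or mutant replicates 2 or 3 of 8 days (0.0513 and 0.0674), though the difference stayed between 2.05 and 2.56 in the 15 such fits. It was 2.54 without both libraries of low Gata4 (adjusted p = 0.105, edgeR) and 2.29 with the Rfx6f/f controls alone (adjusted p = 0.178, edgeR). The other differences were 1.45 ± 0.465 for Slc28a2 (adjusted p = 0.122), 1.24 ± 0.511 for Ada (0.23), 1.02 ± 0.831 for Enpp3 (0.589), 0.34 ± 0.0898 for Egfr (0.072), -0.059 ± 0.174 for Klf4 (0.909) and -0.14 ± 0.192 for Pkib (0.771), all by edgeR. Egfr was called without mutant replicate 4 of 3 months (adjusted p = 0.0386, edgeR) or mutant replicate 1 of 8 days (0.0351), and by DESeq2 (0.0208). The times are separate cohorts, so time and cohort cannot be told apart.

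The controls themselves differed between the cohorts. For 5 of the 7 genes the 3 controls of 8 days and the 4 of 3 months did not overlap, all but Ada and Klf4, and the same held for 49.5% of all genes tested. The mean of the 8-day controls over that of the 3-month controls was 5.91 for Enpp3, 1.79 for Nt5e, 1.57 for Slc28a2, 1.24 for Egfr and 0.632 for Pkib. Gata4, which Enpp3 followed, had 12.4 to 24.8 CPM in the controls of 8 days and 1.61 to 3.63 CPM in those of 3 months. Between the 2 Rfx6f/f and 2 Rfx6f/+ controls of 3 months 0 of the 7 genes were called, where edgeR called 0.0% of 17780 genes, with 1220 (6.86%) at an unadjusted p under 0.05, and DESeq2 called 41 genes. Of the 7, 0 had an unadjusted p under 0.05 and DESeq2 called 0. The 2 libraries of each genotype did not overlap for 4 of the 7 genes, Ada, Klf4, Enpp3 and Pkib, as held for 46.0% of all genes tested. Ada had 248 and 267 CPM in Rfx6f/f and 149 and 176 CPM in Rfx6f/+ controls (log2 change of -0.68 ± 0.448, adjusted p = 0.789, edgeR). Nt5e had 35.3 and 44.8 CPM in Rfx6f/f and 30.2 and 44.8 CPM in Rfx6f/+ controls.

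Genes known by their place on the villus were followed in the same way, beside 9.28% of all genes called by edgeR at 3 months and 29.4% at an unadjusted p under 0.05. Of 8 other genes of the upper villus 2 rose and 1 fell, DESeq2 called 4, and 5 had an unadjusted p under 0.05. Creb3l3, a transcription factor of lipid metabolism, rose by a log2 value of 1.74 ± 0.134 (adjusted p = 0.000555, edgeR) and Apoa4, an apolipoprotein of chylomicrons, by 3.42 ± 0.284 (adjusted p = 0.000717, edgeR). Junb, an AP-1 factor, fell by 0.37 ± 0.0996 on the log2 scale (adjusted p = 0.0493, edgeR), a call kept in 1 of 8 fits without 1 library. Of 7 mid-villus genes 1 rose, the glucose carrier Slc2a2, by 4.23 ± 0.322 (adjusted p = 0.000555, edgeR), while DESeq2 called 3 and 6 had an unadjusted p under 0.05. Of 8 lower-villus genes edgeR and DESeq2 called 0, 0 had an unadjusted p under 0.05, and their median was -0.34. Of 6 crypt genes 1 fell, Top2a, by 0.34 ± 0.083 on the log2 scale (adjusted p = 0.0377, edgeR), a call kept in 2 of 8 fits without 1 library. The 6 had summed levels of 1294 to 1398 CPM in controls and 1047 to 1319 CPM in mutants, and DESeq2 called 1. Of 10 genes of enterocytes at large 1 fell, the bile-acid binding Fabp6, by 1.44 ± 0.204 on the log2 scale (adjusted p = 0.00873, edgeR), with summed levels of 16044 to 19141 and 11929 to 16426 CPM; DESeq2 called 4 and 5 had an unadjusted p under 0.05. Of 6 goblet-cell genes 1 rose, Muc2, by 0.95 ± 0.162 (adjusted p = 0.0144, edgeR), and DESeq2 called 2. At 8 days edgeR called 0 genes of these lists, beside 0.0915% of all genes, and DESeq2 called 1 of the mid-villus list and 0 of the others. The calls of Creb3l3, Apoa4 and Slc2a2 held with the Rfx6f/f controls alone and in all 8 fits without 1 library of 3 months, and those of Junb, Top2a, Fabp6 and Muc2 were lost with the Rfx6f/f controls alone (adjusted p = 0.189, 0.253, 0.119 and 0.129, edgeR).

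**Figure D5:**
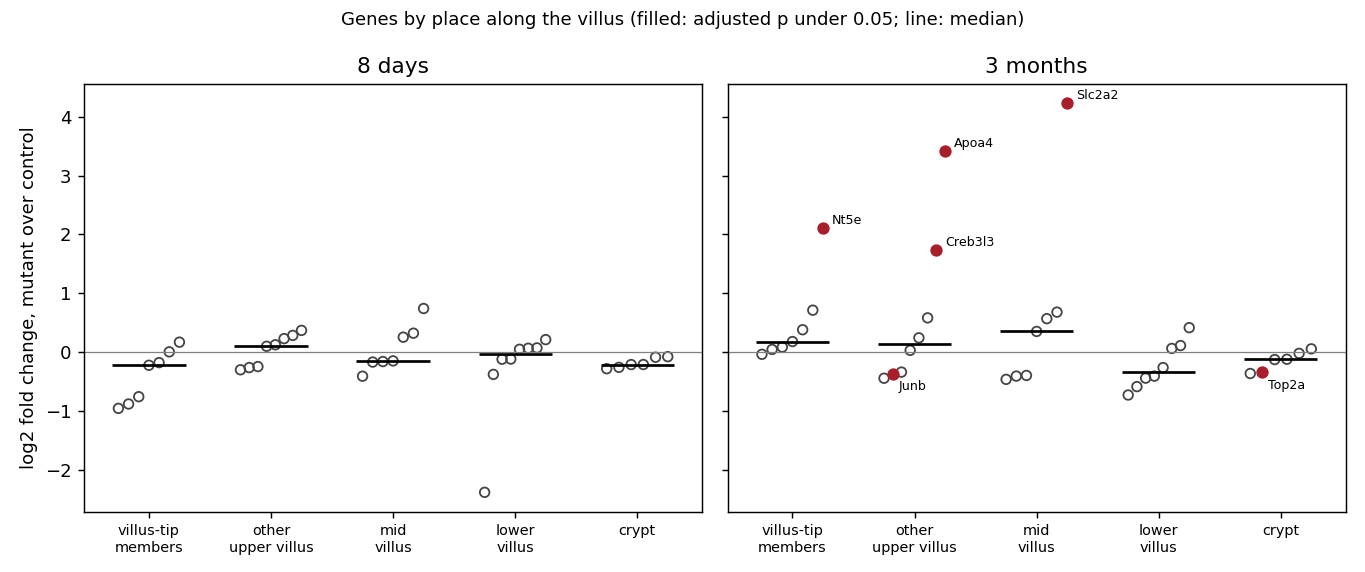
Log2 fold change, mutant over control, of genes listed by their place on the villus at 8 days (left) and 3 months (right); each circle is a gene, filled where the adjusted p is under 0.05, and lines are list medians. At 3 months Nt5e (2.11), Creb3l3 (1.74), Apoa4 (3.42) and Slc2a2 (4.23) stand above the rest of their lists.

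For each of the 7 genes, the genes with the most similar level over the 15 libraries were ranked by Pearson's r among 13490 genes, on log2 CPM with the mean of each cohort subtracted, so that the difference between genotypes stayed in. These values are descriptions, since the libraries share depth and tissue make-up. Nearest to Nt5e were St3gal6 (0.921), Tsc22d1 (0.914) and Slc31a1 (0.914), with log2 fold changes at 3 months of 0.81 ± 0.0877, 0.76 ± 0.14 and 0.53 ± 0.0989. Since they were chosen for likeness to a gene that rose at that time, these are given with no test. Ada was nearest to Slc28a2 (0.881), then Slc23a4 (0.866) and Tubb2b (0.838), and Slc28a2 to Ada, Mief2 (0.872) and Slc23a4 (0.816). Nearest to Enpp3 were Onecut2 (0.96), Nr1i3 (0.959) and Gstm7 (0.953). Onecut2 stood at 0.719 and 0.633 CPM in the 2 libraries low in Gata4 and at 9.26 to 45.4 CPM in the other 5 of 8 days. Nearest to Klf4 were Espn (0.875), Slc25a22 (0.849) and Hnf4a (0.814), to Egfr Adamdec1 (0.848), Fndc1 (0.827) and Neurod1 (0.82), and to Pkib Clk2 (0.918), Sh2b1 (0.907) and Safb2 (0.896).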

How the data were processed

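RNA from mouse ileum was sequenced after removal of ribosomal RNA, per the labels' protocols. The authors deposited unnormalized read counts for Ensembl genes, with a column for every library and a table for each time. The submitters' processing notes name bcl2fastq 2.17.1.14, Bowtie 1.0.0, TopHat2 2.0.10, Bowtie2 2.1.0, HTSeq 0.6.1 and build mm9. The annotation release and strand handling are not given in the sources used here, so reads of genes that overlap cannot be told apart, but by GENCODE M21 no exon of the 7 genes overlaps another gene. GENCODE M21 gave symbols to 32897 of 37620 identifiers (87.45%) and the exon lengths, and promoters came from RefSeq. TRI-reagent or an RNeasy kit is allowed for extraction by the protocol, and which library had which is not given.

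Groups came from the genotype and time labels. Each time was tested with the edgeR 4.0.16 quasi-likelihood test in its legacy form (R 4.3.3). Genes were kept by filterByExpr at a minimum count of 10 and libraries scaled by TMM, with Benjamini-Hochberg adjustment over all genes tested and a threshold of 0.05. Tests were two-sided. Errors of means are SD and of fold changes SE. All 7 genes passed the filter in every fit. The difference between times was the interaction of 4 group means, and the fit for the genotypes of controls had 3 groups. Correlations used log2 CPM with a prior count of 2, the mean of each group subtracted, and exact permutation within groups (82944 orders). Near copies were sought with BLAST 2.17.0 at 85% identity over 300 bases. The fits were tested on simulated data. Figures were drawn with matplotlib 3.10.9.

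The text names the 7 genes, Rfx6, genes of fixed lists that were called or belong to a gene's own pathway, and the 3 genes closest to each gene. Gcg falls outside this rule. The 7 genes and the lists were chosen with earlier results of these data known. Alternatives were DESeq2 1.42.0, RLE scaling, library sizes without the 20 most counted genes, no filter, 10 counts in every sample, a joint fit of 15 libraries, Rfx6f/f controls alone and each library left out in turn. The fits without both 8-day mutants of low Gata4 and those of the correlations were added after seeing the data.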

Additional observations from a re-analysis of the deposited data

Results flagged for a closer look

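A difference between the effect at 3 months and the effect at 8 days, tested in the fit of all 15 libraries, was found for 5 genes of the lists followed here (edgeR quasi-likelihood, adjusted over all genes tested). Nt5e differed by a log2 value of 2.32 ± 0.436 (SE, adjusted p = 0.041, edgeR). The mid-villus gene Slc2a2 differed by 3.96 ± 0.609 (adjusted p = 0.0179, edgeR), and of the other genes of the upper villus Apoa4 differed by 3.30 ± 0.664 (adjusted p = 0.0473, edgeR) and Junb by -0.76 ± 0.156 (adjusted p = 0.0487, edgeR). The plasma-cell gene Mzb1 differed by -1.89 ± 0.297 (adjusted p = 0.0204, edgeR). With 1 library left out in turn, the call held in 6 of 15 fits for Nt5e and for Apoa4, 13 for Slc2a2, 12 for Mzb1 and 4 for Junb. With the Rfx6f/f controls alone all 5 calls were lost (adjusted p = 0.178 for Nt5e, 0.136 for Slc2a2, 0.156 for Apoa4, 0.163 for Junb and 0.121 for Mzb1, edgeR). Without both 8-day mutants of low Gata4 those of Nt5e (0.105), Apoa4 (0.114) and Junb (0.137) were lost, and Slc2a2 and Mzb1 stayed called. In 48 checks of the groups of 4 libraries for a value far from the others, 0 were found, where chance gives about 1 in 20 checks.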

How the results depend on the processing

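No paired analysis was possible because the labels pair no control with a mutant, and replicate numbers were given in accession order. The count of genes called moved most. At 8 days it was 16, against 181 with DESeq2, 27 with no filter, 25 in the joint fit, and 8 to 200 with 1 library left out. At 3 months it was 1586, against 2929 with DESeq2, 36 with Rfx6f/f controls alone (2 libraries fewer), and 391 to 1521 with 1 library left out. For the difference between times it was 141, against 1019 with DESeq2, 223 with no filter, 248 with 10 counts in every sample, 5 with Rfx6f/f controls alone, 14 without both 8-day mutants of low Gata4, and 10 to 749 with 1 library left out. Between control genotypes it was 0, against 41 with DESeq2 and 0 to 2 with 1 library left out. Leaving out a control there sets 1 library of a genotype against 2, and that lone library is assumed to vary like the other control genotype and the mutants, which give the spread. Of the 7 genes, 1 was called at 3 months, 0 with Rfx6f/f controls alone and 1 to 2 with 1 library left out. For the difference between times 1 was called, 2 with DESeq2, 0 with Rfx6f/f controls alone, 0 without both libraries of low Gata4, and 0 to 2 with 1 library left out. The direction turned only in fits without 1 library, for genes that were not called: Klf4 ran from -0.086 to 0.098 at 8 days, -0.105 to 0.031 at 3 months and -0.151 to 0.036 for the difference, Enpp3 from -0.338 to 0.291 at 3 months, Pkib from -0.0036 to 0.084 at 3 months and -0.309 to 0.014 for the difference, and between control genotypes, with the same limit, Nt5e from -0.41 to 0.16 and Slc28a2 from -0.127 to 0.041. With 1 library of 3 months left out, calls at that time held in 8 of 8 fits for Fabp6, Muc2, Mzb1 and Jchain, 5 for Csf1r and Pdgfra, 4 for Cd3d and Cdh5, 3 for Cd5, 2 for Top2a and 1 for Cd3g, Cd8a and Kdr. With Rfx6f/f controls alone all of these calls were lost, at adjusted p of 0.119 for Fabp6, 0.129 for Muc2, 0.126 for Mzb1 and 0.149 for Jchain. The cause of these moves was not tested. Under the other alternatives run every fold change kept its direction. The 7 genes had at least 208 counts in every library.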
